A study of Mus musculus with 6 samples.

Results

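Genes of the cell cycle, mitosis and cell division were followed in mouse choroid plexus, from the lateral ventricles, at embryonic day 15 (E15) and in adults. A transcript cluster (the set of exon probe sets that together measure a gene) was taken as a member if its biological process annotation held the words cell cycle, mitosis, cell division or chromosome segregation, and symbols starting with Hist, which stand for replication-dependent histones, were to be left out, although 0 clusters met the terms and carried such a symbol. The rule found 238 of the 3956 clusters of the gene-level and splicing index tables once these were joined. Plexuses were dissected whole from Swiss Webster mice, so that the samples held epithelium, vessels and stroma, although the series is described as epithelial cells. The labels give 3 pools of 30 E15 pups of mixed sex and 3 pools of 10 adult females, all healthy and without treatment or genetic alteration, and each of the 6 pools of amplified RNA was hybridised to its own mouse exon array. The supplementary checklist gives other pool sizes, and the age of the adults used for the arrays is not given in the labels. Sex composition therefore differed with age, and their parts in any difference cannot be told apart.

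Progress through the cell cycle is driven by cyclins, which bind and activate cyclin-dependent kinases (CDKs). In late G1 the release of E2F factors from the retinoblastoma family of pocket proteins turns on genes for DNA replication, and after replication a further set of genes, for spindle assembly, chromosome condensation and cytokinesis, is transcribed in G2 and mitosis. The kinases Aurora, Bub1 and Plk1 and the anaphase-promoting complex then order the separation of chromosomes. In the embryo the choroid plexus is still growing, by division of epithelial precursors at its root and of cells in its stroma and vessels, whereas the epithelium of the adult plexus is for the most part post-mitotic.

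The deposited tables hold, for each cluster, 1 log2 value for each age, made by the authors from the 3 arrays of that age and centred so that both sum to nearly 0 in most clusters (median size of the sum 0.081 among members, with exceptions named below). They show how far the ages lie apart but not how strongly a gene was expressed. Throughout, differences are given on the log2 scale as adult minus E15, so that a negative number means a higher value at E15, and folds are the corresponding linear ratios of the higher to the lower age. The spread between replicates is lost in the merging, and no value carries an error or a test. The gene-level table (1805 clusters) holds only clusters that had passed the authors' test and their 2-fold threshold. The splicing index table (3369 clusters) was selected on exon usage and holds many clusters under 2-fold, so it also gives members that differed little. Clusters at least 2-fold apart that are in the splicing index table only are not among those that passed the authors' expression filter and test. Genes absent from both tables were not analysed here.

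Cell cycle genes lay mostly toward the embryo. Of the 238 members, 194 (81.5%) were higher at E15, where 54.1% of all clusters of the joined tables were, and 44 were higher in adult. At least 2-fold, 115 members (48.3%, against 24.4% of all clusters) were higher at E15 and 17 (7.14%, against 22.9%) were higher in adult, which left 106 members under 2-fold. The median difference of the members was -0.97, compared with -0.16 over all clusters and -0.08 over the clusters that were not members. At higher thresholds the members toward E15 and toward adult numbered 65 and 6 at 3-fold (27.3% and 2.52%, against 9.98% and 8.87% of all clusters), 39 and 3 at 4-fold (16.4% and 1.26%, against 5.84% and 5.03%), 10 and 1 at 8-fold (against 1.44% and 1.42% of all clusters) and 3 and 1 at 16-fold (against 0.354% and 0.278%). The plot of the distribution of differences shows this displacement.

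**Figure D1:**
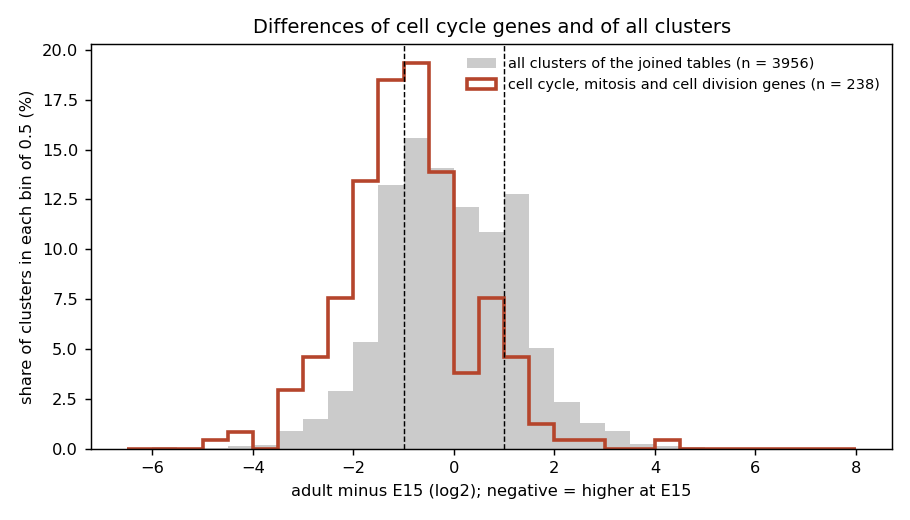
Share of clusters (%) in bins of 0.5 by adult minus E15 difference (log2), for the 238 members (red line) and all 3956 clusters of the joined tables (grey). Dashed lines mark 2-fold. The members' distribution is displaced to negative values, with a median of -0.97 against -0.16.

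The direction was the same in each table, but the tables share clusters, and the excess at 2-fold lay in the gene-level table. The gene-level table held 129 members, and 114 of them (88.4%) were higher at E15, against 51.2% of all its clusters, and their median difference was -1.61. The 109 members found only in the splicing index table were closer together in age, with a median of -0.31. In this set 80 members (73.4%, against 56.5%) were higher at E15. At least 2-fold there was 1 member toward E15 (0.917%, against 1.95%) and 2 toward adult (1.83%, against 1.16%), so no excess toward E15 was seen at that threshold. Over the whole splicing index table, which was not selected on the size of the change, 161 of 202 members (79.7%) were higher at E15, against 55.4% of its clusters. At the 2-fold threshold 82 of the 202 members (40.6%) were at least 2-fold higher at E15, against 20.5%, and 14 (6.93%) in adult, against 17.6%. All but 1 of the 82 are also in the gene-level table.

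Markers of several cell types, not all of them types of the plexus itself, also differed between the ages. In bulk tissue fewer cells of a type and less RNA per cell cannot be told apart. All 6 neural progenitor markers with an entry (of 12) were higher at E15, with differences from -2.73 for Fabp7 to -1.01 for Emx2, as were all 6 mesenchyme and pericyte markers (of 11, median -1.39), all 4 endothelial markers (of 9, median -1.36) and all 8 erythroid markers (of 12, median -2.54). Postn, the mesenchyme marker with the smallest difference (-0.13), was on the adult side once each age was re-centred on its median. Of 10 macrophage markers 6 had an entry (median -0.48), and 4 were higher at E15, 1 of them at least 2-fold (Mrc1, -2.36), whereas Cd74 (3.16) and H2-Ab1 (1.56) were higher in adult. Csf1r (-0.92) and Ptprc (-0.15) of this list are themselves members by their annotation, and Ptprc too was on the adult side after re-centring. Of 14 markers of choroid plexus epithelium, 5 had an entry, and of these Prlr (7.87) and Kl (4.78) were far higher in adult, Enpp2 (0.88) and Sostdc1 (0.42) were under 2-fold and Kcne2 (-1.13) was higher at E15. Ttr, Folr1, Otx2, Clic6 and Aqp1 were in neither table. The centred values cannot show whether any marker was expressed strongly or weakly. The part of these cell types in the differences of the cell cycle genes was not tested.

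Of the 10 members furthest toward E15, all except Rassf4 act in the course from S phase to cytokinesis. Top2a, the topoisomerase that disentangles replicated chromosomes, had the largest difference, -4.65, from a value of 2.38 at E15 and -2.27 in adult, a fold of 25.1. Ccna2, cyclin A2 of S phase and G2, had 2.25 at E15 and -1.84 in adult, a difference of -4.10. Racgap1, a subunit of the centralspindlin complex that directs the cleavage furrow, had 2.17 and -1.83, a difference of -4.00. These were the only members at least 16-fold higher at E15. Next came Rassf4, of the Ras association domain family, with 1.70 at E15 and -1.71 in adult (-3.41), and Prc1, which bundles the microtubules of the central spindle, with 1.68 and -1.64 (-3.32). The spindle checkpoint kinase gene Bub1 had 1.82 at E15 and -1.47 in adult (-3.29). Cdc2a, now named Cdk1, the CDK that drives entry into mitosis, had 1.57 and -1.62 (-3.19), and Plk1, a kinase needed through mitosis, had 1.44 and -1.66 (-3.10). Bub1b, which encodes the checkpoint protein BubR1, differed by -3.07 and Kif11, the motor that pushes spindle poles apart, by -3.03. All 10 passed the authors' test. Since the values are centred for each cluster, differences of this size place the E15 value above 0 and the adult value below it. The plot of the values of the members furthest apart gives both values.

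**Figure D2:**
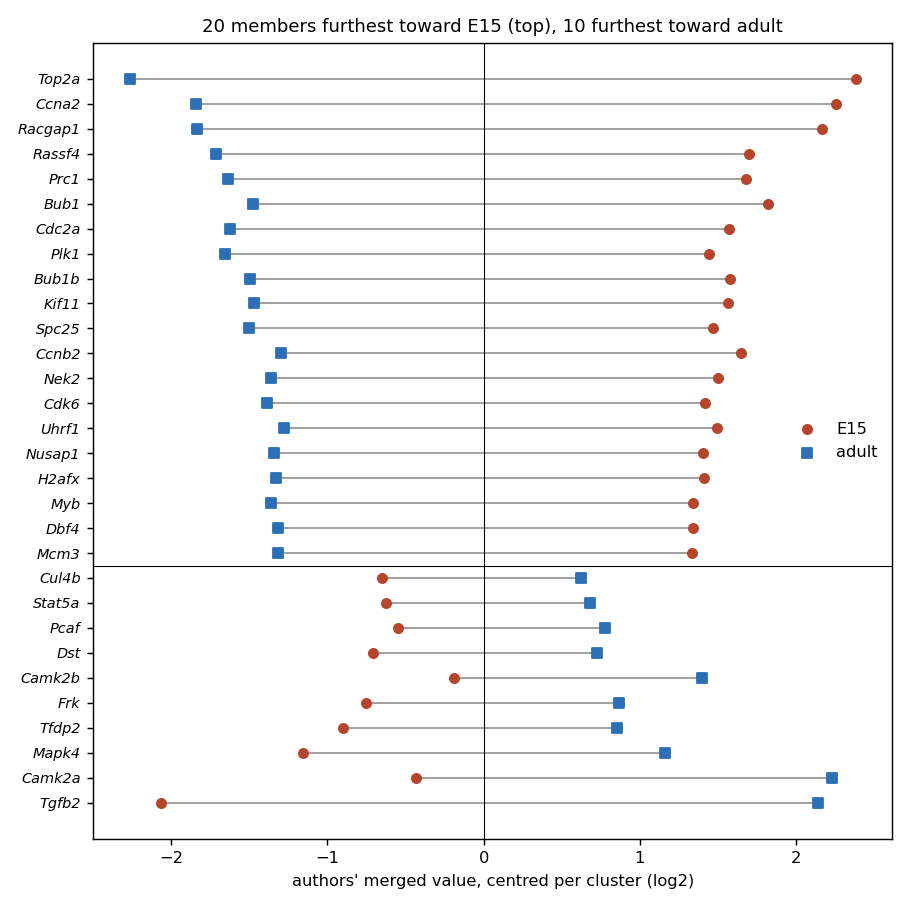
The authors' merged value for E15 (red circles) and adult (blue squares), log2 and centred for each cluster, of the 20 members with the largest difference toward E15 and the 10 with the largest toward adult. Top2a (2.38 at E15, -2.27 in adult) and Tgfb2 (-2.07 at E15, 2.14 in adult) span the widest range, and the values of Camk2a (-0.43 and 2.23) do not lie evenly about 0.

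Genes transcribed in G2 and mitosis are known to carry a cell cycle genes homology region (CHR, letters TTTGAA) near the start of transcription, often a short distance downstream of a CCAAT box, and genes of S phase to carry E2F sites. The sequence of 230 bases before and 30 bases after the start is therefore shown, from RefSeq on build GRCm38.p6, for the 5 members furthest toward E15 that hold both the CHR and CCAAT letters in this stretch. Capitals mark TTTGAA or CCAAT on either strand, so that TTCAAA and ATTGG are the same letters read from the other strand. Top2a lies at chr11:99024160-99024419 on the minus strand, Racgap1 at chr15:99651627-99651886 (minus), Prc1 at chr7:80294221-80294480 (plus), Cdc2a at chr10:69352883-69353142 (minus) and Kif11 at chr19:37376152-37376411 (plus).
Top2a: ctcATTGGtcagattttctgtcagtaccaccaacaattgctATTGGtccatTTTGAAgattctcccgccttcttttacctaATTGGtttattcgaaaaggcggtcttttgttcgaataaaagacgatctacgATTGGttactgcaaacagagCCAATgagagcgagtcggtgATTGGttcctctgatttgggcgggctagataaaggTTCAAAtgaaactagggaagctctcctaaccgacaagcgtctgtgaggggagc
Racgap1: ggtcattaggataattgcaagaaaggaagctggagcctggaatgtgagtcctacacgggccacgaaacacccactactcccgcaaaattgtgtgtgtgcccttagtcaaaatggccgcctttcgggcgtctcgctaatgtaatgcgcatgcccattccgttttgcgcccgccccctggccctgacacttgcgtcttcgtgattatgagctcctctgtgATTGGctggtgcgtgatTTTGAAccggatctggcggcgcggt
Prc1: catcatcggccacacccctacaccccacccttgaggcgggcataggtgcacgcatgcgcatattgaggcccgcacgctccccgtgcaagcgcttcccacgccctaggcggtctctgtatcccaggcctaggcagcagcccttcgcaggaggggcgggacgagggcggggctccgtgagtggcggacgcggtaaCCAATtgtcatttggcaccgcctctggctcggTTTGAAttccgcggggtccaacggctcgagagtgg
Cdc2a: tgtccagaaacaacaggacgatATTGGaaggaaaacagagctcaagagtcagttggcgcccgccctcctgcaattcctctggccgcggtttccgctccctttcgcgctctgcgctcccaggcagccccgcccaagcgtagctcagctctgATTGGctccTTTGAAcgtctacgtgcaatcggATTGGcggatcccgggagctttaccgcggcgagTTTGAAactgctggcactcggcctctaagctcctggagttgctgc
Kif11: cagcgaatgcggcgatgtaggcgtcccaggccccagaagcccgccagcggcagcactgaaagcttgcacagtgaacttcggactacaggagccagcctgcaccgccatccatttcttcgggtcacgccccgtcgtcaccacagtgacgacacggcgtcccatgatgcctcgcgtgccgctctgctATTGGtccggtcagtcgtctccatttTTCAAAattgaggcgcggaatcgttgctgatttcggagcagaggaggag
In Prc1 the CHR letters begin 5 bases before the start and the CCAAT letters 37 bases before it. In Kif11 they begin 19 and 45 bases before the start, and in Racgap1 the CCAAT letters lie 12 bases before and the CHR letters 5 bases after it. Cdc2a holds a pair of CHR matches, 71 and 15 bases before the start, and 3 CCAAT matches. Top2a holds 6 CCAAT matches, and its CHR match nearest to the start lies 23 bases before it. For comparison, Uhrf1 is shown as the replication gene furthest toward E15 that holds the E2F core (TTCCCGC, in capitals with its CCAAT letters), at chr17:56303107-56303366 on the plus strand, and Tgfb2 as the member furthest toward adult, at chr1:186705960-186706219 on the minus strand, with its CCAAT and TATAAA letters in capitals.
Uhrf1: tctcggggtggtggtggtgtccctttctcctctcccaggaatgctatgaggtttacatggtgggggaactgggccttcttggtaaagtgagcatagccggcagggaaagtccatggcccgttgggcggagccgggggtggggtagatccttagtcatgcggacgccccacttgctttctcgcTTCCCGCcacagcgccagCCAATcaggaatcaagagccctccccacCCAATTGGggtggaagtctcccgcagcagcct
Tgfb2: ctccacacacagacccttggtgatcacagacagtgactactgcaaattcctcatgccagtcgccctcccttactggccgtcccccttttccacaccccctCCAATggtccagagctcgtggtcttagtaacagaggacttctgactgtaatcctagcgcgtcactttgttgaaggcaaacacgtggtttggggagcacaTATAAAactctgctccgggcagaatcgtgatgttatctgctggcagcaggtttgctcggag
The E2F core of Uhrf1 begins 48 bases before the start, and 3 CCAAT matches lie between it and the first bases after the start. Tgfb2 holds no CHR or E2F letters in its window, and TATAAA begins 31 bases before its start.

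Letters were then counted in all RefSeq windows of 300 bases (250 before the start and 50 after it), on both strands. Of the 238 members 230 matched a RefSeq gene and 185 had a window, and some genes have several windows. Among members at least 2-fold higher at E15, 36.0% of 111 windows held TTTGAA, compared with 20.8% of 106 windows of members under 2-fold, 8.33% of 24 windows of members at least 2-fold higher in adult, 15.2% of 784 windows of other clusters at least 2-fold higher at E15 and 17.9% of all 32851 windows. By gene the shares of the 3 groups of members were 38.3%, 22.1% and 14.3% (2 of 14 genes). The low share of the adult group depended on the letters, since with TTTGAA or TTTAAA it was 29.2%, above the 23.6% of members under 2-fold and the 27.6% of all windows, and the first group was at 42.3%. CCAAT was in 52.3% of the windows of the first group and 43.4% of members under 2-fold, against 33.3% for members toward adult, 37.2% for other clusters at least 2-fold higher at E15 and 37.4% for all windows, and by gene the 3 groups of members lay close together at 55.3%, 48.1% and 50.0%. Both TTTGAA and CCAAT were in 25.2% of windows of the first group and 12.3% of members under 2-fold, against 4.17% of members toward adult, 7.14% of other clusters toward E15 and 6.95% of all windows. TTCCCGC was in 18.0% of windows of members at least 2-fold higher at E15, but also in 16.0% of those under 2-fold and 16.7% of those toward adult. It was in 7.40% of windows of other clusters at least 2-fold higher at E15 and in 4.60% of all windows. TATAAA was in 3.60% of the windows of the first group, against 12.3% of members under 2-fold, 10.5% of other clusters at least 2-fold higher at E15 and 13.6% of all windows. None of these 4 sets of letters contains another, although CCAAT can share its end base with a neighbouring match of any of the others. The median GC content was 62.3% for windows of members at least 2-fold higher at E15, 62.2% for members under 2-fold, 54.7% for members toward adult, 59.7% for other clusters at least 2-fold higher at E15 and 52.7% for all windows, and its part in these shares was not tested. The plot of these shares sets the groups side by side. A match says only that the letters are present.

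**Figure D3:**
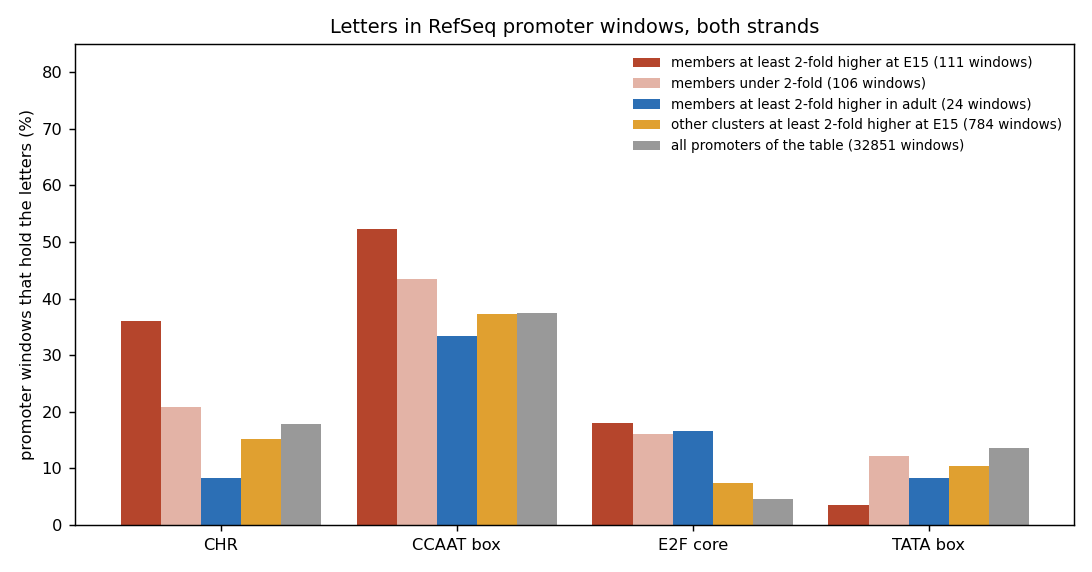
Share of RefSeq promoter windows (%) that hold the letters of the CHR, the CCAAT box, the E2F core or the TATA box on either strand, for members by the size and direction of their difference, for other clusters at least 2-fold higher at E15, and for all windows. The CHR bar is highest for members at least 2-fold higher at E15 (36.0%) and lowest for those at least 2-fold higher in adult (8.33% of 24 windows), an order that does not hold for the latter with TTTAAA allowed as well (29.2%).

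The matches also lay in different places. In members at least 2-fold higher at E15, TTTGAA began in the 50 bases from the start at 18.9 matches per 100 windows and in the 50 bases before it at 11.7, whereas over all windows these rates were 2.30 and 2.88. In the bin furthest upstream the rate was 1.80 in members and 4.17 in all windows. CCAAT was most frequent in the 100 bases before the start, with 29.7 and 34.2 matches per 100 windows in the outer and inner 50 bases, against 13.8 and 9.72. The shares also differed by role. TTTGAA was in 10 of 14 windows of spindle genes, 6 of 8 of condensin, cohesin and chromosome structure genes and 8 of 15 of spindle checkpoint and anaphase-promoting complex genes. It was in 2 of 8 windows of kinetochore genes, 3 of 9 of mitotic kinases, 5 of 15 of cytokinesis genes and 3 of 10 of cyclins and CDKs. Replication genes had it in 5 of 19 windows, E2F and other transcription factors in 2 of 5, CDK inhibitors and exit genes in 1 of 8 and DNA damage checkpoint genes in 0 of 5. Members in no role list had it in 19 of 125 windows, and the share of all windows was 17.9%. TTCCCGC was in 10 of 19 windows of replication genes and 4 of 5 of DNA damage checkpoint genes. It was in 3 of 8 of kinetochore genes and 2 of 8 of condensin, cohesin and chromosome structure genes, and in 0 of 14 of spindle genes and 0 of 9 of mitotic kinases. Overlapping windows of 1 gene, as for Prc1, Cep55 and Ect2, count the same match again, here and in the rates by position, and the 14 spindle windows come from 10 genes. Members of a list are not independent of each other, and these counts are descriptions.

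**Figure D4:**
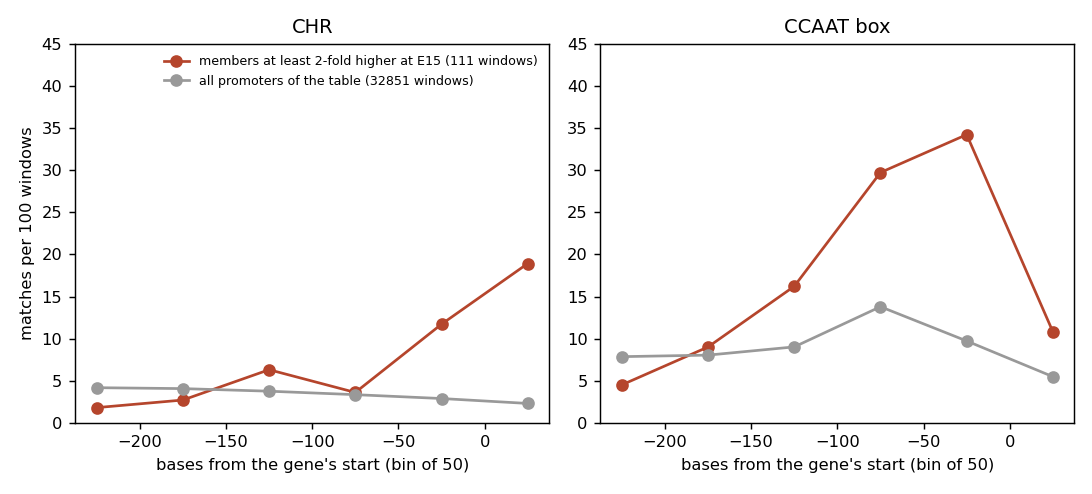
Matches per 100 RefSeq windows of TTTGAA (CHR, left) and CCAAT (right) by distance from the gene's start in bins of 50 bases, for members at least 2-fold higher at E15 (red) and all windows (grey). Members' CHR matches are most frequent in the bin from the start (18.9 per 100 windows), and their CCAAT matches in the 50 bases before it (34.2).

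Lists of genes by role were drawn up to describe the members, and 121 of the 238 members fell in a list. Of these 117 were higher at E15 (86 at least 2-fold) and 4 in adult, 2 of them at least 2-fold, with a median difference of -1.48. The lists hold 326 genes, of which 167 had an entry in either table, and the share with an entry was unequal, from 7 of 27 for CDK inhibitors and exit genes, 15 of 29 for the checkpoint and anaphase-promoting complex, 16 of 34 for the kinetochore and 27 of 57 for the spindle to 28 of 35 for replication. Genes with no entry have no value here, and each list's counts are to be read against the 54.1% and 24.4% of all clusters that were higher, and at least 2-fold higher, at E15. A further 46 genes of the lists had an entry without being taken by the annotation terms, and 40 of these were higher at E15, with a median of -1.26. The 117 members in no list were more mixed, with 77 higher at E15 and a median of -0.50. The plot of members by role gives each cluster, and the roles follow in the order of the cycle.

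**Figure D5:**
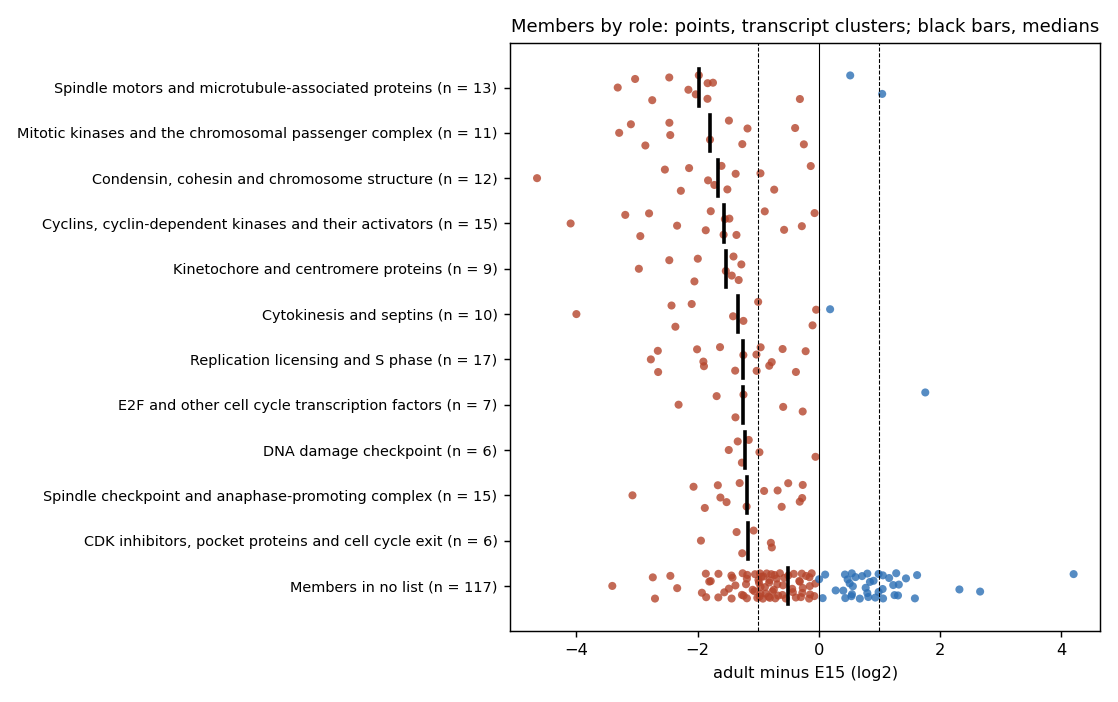
Adult minus E15 difference (log2) of each member by role list, ordered by the list's median (black bars). Red points were higher at E15 and blue points higher in adult, and dashed lines mark 2-fold. Median differences run from -1.98 for spindle genes to -1.17 for CDK inhibitors, and the members in no list (median -0.50) hold most of the points higher in adult.

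All 15 cyclins, CDKs and activators taken by the terms were higher at E15, 11 of them at least 2-fold, with a median difference of -1.57. Besides Ccna2 and Cdc2a, the B-type cyclins of mitosis were far toward E15, Ccnb2 with 1.65 at E15 and -1.30 in adult (-2.95) and Ccnb1 with 1.31 and -1.03 (-2.34). The G1 kinases that pair with D-type cyclins differed unequally, Cdk6 by -2.80 and Cdk4 by -1.55, and cyclin D1 (Ccnd1) itself by -1.87. Cdk2, the partner of cyclins E and A, differed by -1.36, and Ccna1, the cyclin A known best from the germline, by -1.48. The Cdc25 phosphatases, which activate CDKs, were spread from -1.57 for Cdc25c to -0.28 for Cdc25a. Cyclin E1 (Ccne1, -0.89), Ccnf (-0.57) and Cdc25a were in the splicing index table only, as was Cdk5, a CDK best known from post-mitotic neurons, which had the smallest difference of the list (-0.07) and was higher in adult once each age was re-centred on its median. Cks1b, a small CDK subunit, was measured in a cluster shared with other symbols, at -1.78.

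CDK inhibitors and exit genes with an entry lay mostly on the same side as the cyclins, whereas members annotated with cell cycle arrest were divided. All 6 members of the list of CDK inhibitors and exit genes were higher at E15, 4 at least 2-fold, with a median of -1.17, but only 7 of the 27 genes of this list had an entry, and Cdkn1b, Cdkn1c and Rb1 were among those without. They were Cdkn1a, which encodes p21 (-1.95), Cdkn2c, which encodes the CDK4 and CDK6 inhibitor p18 (-1.36), the pocket protein gene Rbl1 (-1.26), the phosphatase gene Cdkn3 (-1.08), Trp53, which encodes p53 (-0.79), and Gadd45b (-0.78). The values of Cdkn1a and Cdkn2c thus had the sign of the cyclins and kinases whose products they inhibit. Hexim1, an inhibitor of the transcription kinase P-TEFb and not of a cell cycle CDK, was outside the terms and higher in adult (1.06). Members annotated with negative regulation of cell cycle numbered 23, of which 19 were higher at E15 (median -0.79), and members annotated with cell cycle arrest numbered 17, of which 10 were higher at E15 and 7 in adult (median -0.32). The share of arrest members higher at E15, 58.8%, was close to the 54.1% of all clusters.

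Among transcription factors, 6 of 7 list members were higher at E15, with a median of -1.24. E2f7 (-2.31) and E2f8 (-1.69), which are atypical E2F repressors, had larger differences than Myc (-1.38) and Mycn (-1.24). Lin9, a subunit of the MuvB core that binds CHR sites, differed by -0.59 and Mybl1 by -0.27, both in the splicing index table only. Foxm1, an activator of G2 and mitotic genes, was outside the terms, in a shared cluster, at -1.90. The exception was Tfdp2, a dimerisation partner of E2F proteins, with 0.85 in adult and -0.90 at E15, a difference of 1.76 toward adult.

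All 17 members for replication licensing and S phase were higher at E15, 11 of them at least 2-fold, with a median of -1.25. The MCM helicase subunits ranged from Mcm3 (-2.65) through Mcm5 (-2.01), Mcm6 (-1.90), Mcm2 (-1.38) and Mcm7 (-1.25), and Mcm4, which was outside the terms, was at -1.06. All 6 subunits of the replicative helicase were thus in the gene-level table, which admits only differences of at least 2-fold, and higher at E15, while Mcm8, which is not part of that complex, was at -0.38. Uhrf1, which guides maintenance of DNA methylation at replication forks, had 1.49 at E15 and -1.28 in adult (-2.77). Dbf4, the activating subunit of the kinase Cdc7, differed by -2.66 but Cdc7 itself by -1.03. Cdt1, which loads the helicase, differed by -1.63, and geminin (Gmnn), its inhibitor, by -0.22. Of the 11 list genes outside the terms, 10 were higher at E15, among them the nucleotide synthesis enzymes Tk1 (-2.10) and Rrm1 (-1.36), and Orc2l was at 0.17. All 6 members of the DNA damage checkpoint list were higher at E15 too. Chek1 (-1.49), Chek2 (-1.34) and Brca1 (-1.16) were at least 2-fold higher, Fanci was at -0.98 and Brca2 at -0.05, the last on the adult side after re-centring. Ercc6l (-1.27), also at least 2-fold higher, is annotated with mitosis and cell division and counts as a checkpoint gene only by its place in the list. Clusters annotated with DNA replication or repair that were not members numbered 63, of which 52 were higher at E15, with a median of -0.83.

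Mitotic kinases and the chromosomal passenger complex (Aurora B with its partners, which corrects attachments of chromosomes to the spindle) were all toward E15 among members, 11 of 11, with a median of -1.80. Aurkb (-2.45) was accompanied by all 3 of its partners, Cdca8 (-1.80), Birc5 (-1.48) and Incenp (-1.26). Aurka, the Aurora kinase of the spindle poles, had 1.19 at E15 and -1.28 in adult (-2.47). The NIMA-related kinases were unlike each other, Nek2 at -2.86, Nek1 at -1.18, Nek4 at -0.39 and Nek6 at -0.25. Outside the terms, Pbk (-3.09), Melk (-2.57), Plk4 (-2.35) and Ttk (-1.92) were higher at E15, whereas Plk3 (1.00) and Nek7 (1.15) were higher in adult, so that the Polo-like and the NIMA-related kinases each held genes on both sides.

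Kinetochore members were higher at E15 in 9 of 9 cases, with a median of -1.53, and all 9 came from the gene-level table, which holds only differences of at least 2-fold. The 4 subunits of the Ndc80 complex, which grips spindle microtubules, were Spc25 (1.47 at E15, -1.50 in adult, a difference of -2.97), Nuf2 (-2.47), Ndc80 (-1.44) and Spc24 (-1.32). Dsn1 (-2.00) and Nsl1 (-1.28) of the Mis12 complex, Cenph (-1.53) and the shugoshins Sgol2 (-2.05) and Sgol1 (-1.41), which protect centromeric cohesion, followed the same direction. All 7 list genes that the terms did not take were also higher at E15, led by Cenpa, the centromeric histone H3 variant (-2.44), Cenpn (-2.12) and Cenpe (-1.83). By the component annotation, 18 of 18 members of the pericentric region (median -1.58, against -1.35 for 10 clusters of that class that were not members) and 7 of 8 members of the kinetochore were higher at E15, the exception being Pcaf (1.32).

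All 15 members for the spindle checkpoint and the anaphase-promoting complex were higher at E15, 8 at least 2-fold, with a median of -1.19. Several regulators and substrates of the complex were at least 2-fold higher at E15. They were Bub1b, the inhibitor Fbxo5, also called Emi1 (-2.07), the activator Cdc20 (-1.67), Mad2l1 (-1.62), securin (Pttg1, -1.31) and the ubiquitin-conjugating enzyme Ube2c (-1.19). Core subunits Cdc23 (-0.90), Cdc16 (-0.68) and Anapc11 (-0.27), the activator Fzr1 (-0.61), separase (Espl1, -0.27) and the checkpoint genes Bub3 (-0.50) and Zw10 (-0.31) were under 2-fold, although Zwilch, whose product acts with that of Zw10, was at -1.88. Anapc5, another core subunit, was at -1.52, but it was present in the splicing index table only and so is not among the clusters that passed the authors' expression filter and test. Its values of 0.38 at E15 and -1.14 in adult do not lie evenly about 0.

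Condensin, cohesin and chromosome structure genes were higher at E15 in 12 of 12 members, with a median of -1.66. Subunits of condensin, which compacts mitotic chromosomes, were Smc4 (-2.28) and Smc2 (-2.14), Ncaph (-2.54) and Ncapd2 (-1.61) of condensin I, and Ncapg2 of condensin II (-0.96). Among cohesin genes, Rad21, the cleaved subunit, was at -0.74 and Pds5a, a regulator, at -0.13 (on the adult side after re-centring), compared with Esco2 (-1.51) and Cdca5, which encodes sororin (-1.37), both of which act to establish cohesion in S phase. All 6 members annotated with mitotic chromosome condensation were higher at E15, with a median of -2.21. Mki67, the gene of the proliferation marker Ki-67, was not taken by the terms and differed by -3.20, with 1.53 at E15 and -1.67 in adult.

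Spindle genes had a median of -1.98, with 11 of 13 members higher at E15. This was the median furthest toward E15 of the role lists. By the mean (-1.68), however, the lists of mitotic kinases, of kinetochore genes, of condensin, cohesin and chromosome structure genes and of cyclins lay further than the spindle genes. Besides Prc1 and Kif11 they included Nusap1 (-2.75), Dlg7 (-2.47), Spag5 (-2.15), Ckap2 (-2.03), Kif20b (-1.98), Aspm, which focuses spindle poles (-1.84), Tacc3 (-1.83) and Cep55 (-1.75). The pair higher in adult act on microtubules outside mitosis as well, Clasp2, which stabilises plus ends (1.05), and the severing enzyme subunit Katna1 (0.52). Of 14 genes outside the terms, 13 were higher at E15, led by Tpx2 (-3.49), which activates Aurora A, and including the mitotic kinesins Kif2c (-2.87), Kif20a (-2.45), Kif15 (-2.25) and Kif23 (-2.01), the partner of Racgap1 in centralspindlin. In cytokinesis, 9 of 10 members were higher at E15, among them Anln (-2.43), Ect2, the exchange factor that activates RhoA at the furrow (-2.10), the non-muscle myosin gene Myh10 (-1.41) and Cit (-1.24). Septins, which form filaments in dividing and non-dividing cells, were spread out, with Septin11 at -2.37, Septin2 at -1.00, Septin9 at -0.10, Septin8 at -0.04 (both on the adult side after re-centring) and a cluster shared by Sept5 and Gp1bb at 0.19. The sum of both values of Septin11 was -0.75, far from 0.

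Of the 117 members in no role list, 29 were at least 2-fold higher at E15 and 15 in adult, a share toward E15 close to the 24.4% of all clusters and a share toward adult below their 22.9%. The 29 included the variant histone gene H2afx (-2.74), the transcription factor genes Myb (-2.70), Cited2 (-2.34), Ets1 (-1.78), Ets2 (-1.66), Nr2f1 (-1.56) and Mycl1 (-1.44), the cell surface genes Cadm1 (-2.45), Dcc (-1.93), Pmp22 (-1.42) and Notch1 (-1.06), the chromatin genes Suv39h1 (-1.86) and Hells (-1.81), and Skp2 (-1.86), which encodes the ubiquitin ligase subunit that targets p27. Rprm, an arrest gene downstream of p53, differed by -1.48.

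Of the 17 members at least 2-fold higher in adult, 15 were in no role list. Tgfb2, the growth factor TGF-beta2, stood apart with 2.14 in adult and -2.07 at E15, a difference of 4.21 and a fold of 18.5. Mapk4, an atypical MAP kinase gene, had 1.16 in adult and -1.16 at E15 (2.32). After Tfdp2 came Frk, a kinase of the Src family (1.62), Dst, a linker of cytoskeletal filaments (1.44), Pcaf, an acetyltransferase gene (1.32), Stat5a, a transcription factor that acts downstream of prolactin and cytokine receptors (1.31), and Cul4b, a ubiquitin ligase scaffold (1.28). Ccpg1 (1.25), Steap3 (1.23), Hrasls3 (1.16), Stard13 (1.06), the phagocytic receptor gene Mertk (1.05), Clasp2 and a cluster shared by Ptp4a1 and other symbols (1.06) completed those in the gene-level table. Of the 17, 15 met only 1 of the 4 search terms.

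Camk2a and Camk2b, subunits of a calcium-dependent kinase abundant in neurons, were among the 10 furthest toward adult but only in the splicing index table. Though counted among the 17, they are thus not among the clusters that passed the authors' expression filter and test. Camk2a had 2.23 in adult and -0.43 at E15 (2.66), and Camk2b 1.40 and -0.19 (1.59). The sums of their values, 1.79 and 1.21, were far from the median size of 0.081 among members. In a list of 12 mature neuron markers added after these values had been seen, 6 had an entry and 5 were higher in adult, Syt1 (1.97), Slc17a7 (1.73), Snap25 (1.52), Grin1 (1.26) and Syn1 (0.78), and Nefm was at -1.71. The part of neuronal RNA in the values of Camk2a and Camk2b was not tested. Both are members through the term G1/S transition of mitotic cell cycle, which holds 8 members, 3 of them higher at E15 (Myb, Skp2 and Cul4a, the last at -0.15).

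Members were also counted by how many of the 4 search terms their annotation held. Of 141 members with 1 term, 104 were higher at E15 (median -0.78), of 22 with 2 terms, 19 were (median -0.86), and of 69 with 3 terms, 65 were (median -1.48). All 6 members that held all 4 terms were higher at E15, with a median of -1.29, nearer to 0 than that of members with 3 terms. By single terms, the share was 184 of 227 for cell cycle, 93 of 100 for cell division, 73 of 77 for mitosis and 11 of 12 for chromosome segregation. Members annotated to the nucleus were higher at E15 in 133 of 153 cases and those annotated to membrane in 16 of 33, near the 54.1% of all clusters. Clusters with these annotations that were not members differed in the same order, with medians of -0.45 for nucleus (738 clusters) and 0.25 for membrane (1337 clusters). Of the 160 members whose matching annotations were all inferred electronically, 139 were higher at E15 (median -1.02), and of the 78 others 55 were (median -0.78).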

How the data were processed

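Total RNA of 6 pools, amplified and labelled, was measured on Mouse Exon 1.0 ST arrays. The authors summarised genes by RMA in Affymetrix Power Tools, filtered on expression, and kept clusters that passed an unpaired test with Benjamini-Hochberg correction and a 2-fold threshold. The splicing index table rests on PLIER and an analysis of variance, per the checklist. Both deposited tables give log2 values merged for each age (0 columns hold a single array), equal in all 1218 shared clusters. Columns with the authors' fold changes, directions and splicing indices were not used, nor was a further table of clusters common to both. The genome build and the versions of Affymetrix Power Tools and PLIER are not given in the sources used here.

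The tables were joined by cluster and searched for the terms, and differences, counts and medians were computed (Python 3.11.15, pandas 2.3.3, numpy 2.4.6, matplotlib 3.10.9) with code tested on simulated data. The planned model across arrays was not run, since no array values were held, and the number of arrays limits the precision. The members, role lists and markers were chosen with earlier results of these data known, and the neuron markers after values were seen. Every member of the gene-level table could be named, of the others those of a role list or among the 10 largest differences in each direction or at least 2-fold apart, and role list genes outside the terms. Beyond this rule, Csf1r and Ptprc were named as markers and Cul4a for the term it shares with Camk2a and Camk2b. The members at the extremes were always named. For 4 members, septins whose symbols a spreadsheet had turned into dates, names were restored by RefSeq accession. Clusters without process annotation (1001) could not be members. Alternatives were other folds, annotations, tables, centring, summaries and motif letters.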

Additional observations from a re-analysis of the deposited data

How the results depend on the processing

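Of 68 values recomputed under other settings 54 stayed within a factor of 1.5, 14 moved further and 0 reversed. Without annotations inferred electronically, 78 members gave 55 higher at E15, 33 of them at least 2-fold, and 7 at least 2-fold higher in adult. The gene-level table alone gave 114 higher at E15 with a median of -1.61. Exact term names gave 10 members at least 2-fold higher in adult. A fold of 3 left 65 members toward E15 and 6 toward adult, and a fold of 4 left 39 and 3. The mean in place of the median gave -0.82 for the transcription factors and -0.31 for members in no list. With TTTGAA or TTTAAA as the CHR letters, 29.2% of windows of members at least 2-fold higher in adult and 27.6% of all windows held a match, so the share in the former was no longer the lower one.

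Over the joined tables the adult median lay below the E15 median, a shift of -0.15. Re-centring each age on its median gave 184 members higher at E15, 107 of them at least 2-fold, 21 at least 2-fold higher in adult and a median of -0.82. The sign of 10 members changed, among them Cdk5, Pds5a, Brca2, Ptprc, Septin8 and Septin9. No paired analysis was possible because the tables hold 1 merged value per age, and leaving out replicates and the replicate block were not run for the same reason. Centred values give no measure of signal over background.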
